A study of Rattus norvegicus with 6 samples.

Results

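The AMPA and NMDA receptor subunit genes were examined in RNA-seq libraries of rat spinal cord, 3 after sham surgery and 3 after spared nerve injury (SNI), an operation on the sciatic nerve that spares its sural branch and is used as a model of neuropathic pain (NP). Of the 22050 genes in the table, 10 are reported here: *Gria1* to *Gria4* for the AMPA receptor, and *Grin1*, *Grin2a*, *Grin2b*, *Grin2c*, *Grin2d* and *Grin3a* for the NMDA receptor. They were chosen by symbol as 2 receptor families, with the levels in these 6 libraries already known, so the comparison of SNI-NP with sham rats is given for them as a description. The rats were young adult male Sprague-Dawley animals in the methods of the study, with the sham operation as the control. The time after surgery, the segment and the side of the cord used for RNA-seq are not given in the sources used here, and the labels do not say that the 3 libraries of a group came from separate animals, so p-values measure only the spread between these libraries, which may be partly technical.

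AMPA and NMDA receptors are glutamate-gated ion channels, each built from several subunits, and they carry most of the fast excitatory transmission from sensory afferents to dorsal horn neurons. GluA2, encoded by *Gria2*, makes an AMPA receptor nearly impermeable to calcium once its transcript has been edited. NMDA receptors need GluN1, encoded by *Grin1*, together with GluN2 or GluN3 subunits, which set the kinetics and the magnesium block of the channel. These receptors are known for their part in the strengthening of dorsal horn synapses after nerve injury.

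The promoter sequences below show the most abundant subunit of each family per length, *Gria4* and *Grin1*, over the 250 bases before the transcription start in RefSeq (build GRCr8). RefSeq promoters were at hand for 5 of the 10 genes (*Gria4*, *Grin1*, *Grin2c*, *Grin2d* and *Grin3a*). Capitals mark the letters CAGCTG (an E-box) and TGACG or its reverse complement (the core of a cyclic AMP response element), searched on both strands and not overlapping each other here. *Gria4* lies on the minus strand at chr8:10319882-10320131 and *Grin1* on the minus strand at chr3:28528755-28529004.

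Gria4: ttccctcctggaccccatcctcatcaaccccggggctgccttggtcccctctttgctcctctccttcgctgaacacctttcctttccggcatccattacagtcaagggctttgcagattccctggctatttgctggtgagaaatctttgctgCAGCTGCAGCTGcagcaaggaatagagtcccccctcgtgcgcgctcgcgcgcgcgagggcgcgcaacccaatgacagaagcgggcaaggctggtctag

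Grin1: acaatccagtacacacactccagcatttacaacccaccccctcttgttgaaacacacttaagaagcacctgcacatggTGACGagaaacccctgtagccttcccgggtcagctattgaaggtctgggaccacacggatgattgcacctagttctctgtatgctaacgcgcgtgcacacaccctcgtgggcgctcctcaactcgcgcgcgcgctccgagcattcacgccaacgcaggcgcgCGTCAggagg

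The E-box letters were found in *Gria4* and *Grin3a* and in 12% of all 33469 promoters of the same length, and the response element core in *Grin1* and in 18.2%. The GC box, spelled GGGCGG, was in 30.5% of all promoters and in 0 of these 5 windows. The TATA box, searched for with the letters TATAAA, was in 12.9% of all promoters and also in 0 of the 5. The G and C content was 59.6% for *Gria4* and 57.6% for *Grin1*, against a median of 51.2% over all promoters. These matches describe the letters only.

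Totals were 16670760 to 18151156 counts per library, and levels are in CPM, the count after scaling by library size with TMM factors. A count of 0 allowed up to 0.167 to 0.18 CPM on that scale, a limit that covers counting error only. Every list of spinal cord neuron and glia markers was detected in each library, with 1 excitatory and 1 motor neuron gene at 0 counts in at least 1 library. The summed markers of dorsal root ganglion neurons, which lie outside the cord, were 403, 790 and 921 CPM in sham libraries against 87.9, 1245 and 905 in SNI-NP libraries. SNI-NP replicate 1 therefore stood below the other 5 libraries in ganglion markers. Skeletal muscle markers ranged from 10.2 to 423 CPM, with 1 gene higher. Meningeal and fibroblast markers summed to 4655 to 6342 CPM in sham libraries against 5977 to 7459, and neutrophil markers to 27.9 to 101 against 75.6 to 151, each with 1 gene higher. The sums of oligodendrocyte markers (30040 to 40884 CPM), their precursors (232 to 270 CPM) and microglia (232 to 306 CPM) had 0 genes that passed. The erythroid sum was 967 to 2357 CPM in sham libraries against 2112 to 5083 in SNI-NP libraries, with 4 of its 5 genes higher at an unadjusted p under 0.05.

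**Figure D1:**
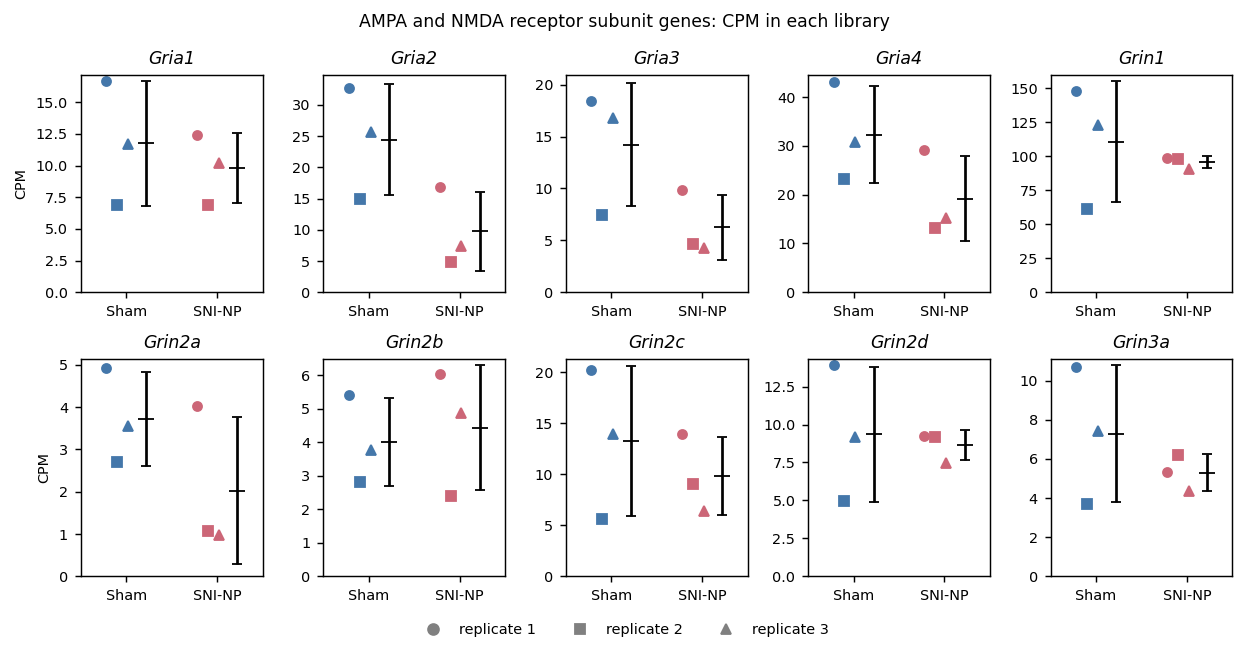
Level of each subunit gene in CPM (vertical axis, from 0) in the 3 sham and 3 SNI-NP libraries; the marker shape gives the replicate and the black bar the mean ± SD of a group. For *Gria2* the sham values run from 15 to 32.7 CPM and the SNI-NP values from 4.89 to 16.9, and the groups overlap for each of the 10 genes.

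The AMPA receptor genes *Gria2*, *Gria3* and *Gria4* had lower mean levels in SNI-NP rats, whereas *Gria1* and *Grin1* differed by less than the spread between libraries. *Gria2* (ENSRNOG00000054204) had 32.7, 15 and 25.7 CPM in sham libraries against 16.9, 4.89 and 7.42 CPM in SNI-NP libraries. The lowest sham library, replicate 2, lay below the highest SNI-NP library, replicate 1, and the other SNI-NP libraries lay below every sham library. The means were 24.5 ± 8.9 and 9.72 ± 6.31 CPM (SD, 3 libraries each). The fitted log2 fold change (log2FC, SNI-NP over sham) was -1.33 with a standard error (SE) of 0.47, or 2.52-fold lower in SNI-NP rats. *Gria3* (ENSRNOG00000007682), which encodes GluA3, a frequent partner of GluA2, had 18.4, 7.44 and 16.8 CPM in sham libraries against 9.84, 4.61 and 4.29 CPM in SNI-NP libraries. Again only sham replicate 2 fell within the range of the SNI-NP libraries. Its log2FC was -1.19 (SE 0.44).

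*Gria4* (ENSRNOG00000006957), which encodes GluA4, a subunit with fast gating, had 43, 23.3 and 30.7 CPM in sham libraries against 29.2, 13.1 and 15.2 CPM in SNI-NP libraries. SNI-NP replicate 1 lay within the sham range and the other SNI-NP libraries below it, and the log2FC was -0.75 (SE 0.34), or -1.19 with SNI-NP replicate 1 left out and -0.51 with sham replicate 1 left out. *Gria1* (ENSRNOG00000045816), which encodes GluA1, the subunit best known for activity-driven insertion at synapses, had 16.7, 6.87 and 11.7 CPM in sham libraries against 12.4, 6.89 and 10.2 CPM in SNI-NP libraries. All SNI-NP values lay inside the sham range, and the log2FC was -0.26 (SE 0.35).

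*Grin1* (ENSRNOG00000011726), which encodes the obligatory GluN1 subunit, had 148, 61.3 and 123 CPM in sham libraries against 98.6, 98.1 and 90.7 CPM in SNI-NP libraries. The SNI-NP libraries lay close together and inside the sham range. The log2FC was -0.21 (SE 0.29).

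Among the GluN2 genes, the mean of *Grin2a* was lower in SNI-NP rats and that of *Grin2b* was not. *Grin2a* (ENSRNOG00000033942), which encodes the GluN2A subunit of mature synapses, had 4.92, 2.7 and 3.55 CPM in sham libraries against 4.03, 1.06 and 0.985 CPM in SNI-NP libraries, from 17 to 82 counts a library. SNI-NP replicate 1 was in the sham range, and replicates 2 and 3 were below every sham library with 19 and 17 counts. The log2FC was -0.88 (SE 0.57), which became -1.86 when SNI-NP replicate 1 was left out and -0.57 when replicate 2 of that group was. *Grin2b* (ENSRNOG00000008766), which encodes GluN2B, the slower subunit that is prominent early in development, had 5.4, 2.82 and 3.78 CPM in sham libraries against 6.04, 2.39 and 4.87 CPM in SNI-NP libraries, with both the highest and the lowest value in an SNI-NP library. Its log2FC was 0.15 (SE 0.39).

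*Grin2c* (ENSRNOG00000003280), which encodes GluN2C, a subunit also made by astrocytes, had 20.2, 5.58 and 14 CPM in sham libraries against 14, 9.05 and 6.43 CPM in SNI-NP libraries. *Grin2d* (ENSRNOG00000021063), which encodes GluN2D, a subunit with weak magnesium block and slow deactivation, had 13.9, 4.96 and 9.2 CPM in sham libraries against 9.26, 9.16 and 7.48 CPM in SNI-NP libraries. *Grin3a* (ENSRNOG00000005723), which encodes the glycine-binding GluN3A subunit, had 10.7, 3.72 and 7.45 CPM in sham libraries against 5.35, 6.22 and 4.35 CPM in SNI-NP libraries. For these genes every SNI-NP library lay inside the sham range, and the log2FC values were -0.43 (SE 0.47), -0.12 (SE 0.35) and -0.46 (SE 0.37) in the same order.

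edgeR's quasi-likelihood test was fitted on all 14426 genes with enough counts, and all 10 subunit genes passed that filter. At an unadjusted p under 0.05, 2 of the 10 were lower in SNI-NP rats (*Gria2* and *Gria3*), against 5.94% of all genes tested, and 0 were higher, against 4.91%. At a Benjamini-Hochberg adjusted p under 0.05 the count was 0 of the 10, and 0% of all genes tested passed. DESeq2 gave 3 of the 10 at an unadjusted p under 0.05 and 0 after adjustment, and over all genes it gave 1684 and 210. The 3 SNI-NP libraries lay below the 3 sham libraries for 0 of the 10 genes (8.15% of all genes tested) and above them for 0 (10.4%). The median log2FC of the 10 genes was -0.44, and 9 of them were below 0, whereas the median over all genes tested was 0.00569, with 49.1% below 0. Nothing is read from these counts about the families, since the genes were picked with the values in view.

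The count of 2 depended on single libraries. It was 0 when sham replicate 1 or 3 or SNI-NP replicate 2 or 3 was left out, in fits where 6.21%, 6.97%, 9.5% and 6.28% of all genes passed in either direction, in that order. Leaving out sham replicate 2 gave 5, with 14.6% of all genes, and leaving out SNI-NP replicate 1 gave 4, with 13.1%. *Gria2* stayed between -1.99 and -1.01 on the log2 scale when each library was left out, the ends given by leaving out SNI-NP replicates 1 and 2, and *Gria3* between -1.67 and -0.97. The median of the 10 genes was -0.04 without sham replicate 1 and -0.79 without sham replicate 2.

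Levels were compared between genes in FPKM, the deposited value that is scaled by gene length and library total. *Grin1* was the most abundant in both groups, at 26.2 ± 10.2 FPKM in sham libraries against 22.1 ± 1.03 in SNI-NP libraries (SD, 3 libraries each), and its range did not meet that of the second gene, *Gria4*, at 9.36 ± 2.71 and 5.41 ± 2.25. The order in sham rats went on with *Gria1* (5.03 ± 2.02), *Gria2* (3.66 ± 1.27), *Grin2c* (2.86 ± 1.55), *Gria3* (2.85 ± 1.15), *Grin3a* (2.28 ± 1.06), *Grin2d* (1.94 ± 0.874), *Grin2a* (0.883 ± 0.248) and *Grin2b* (0.77 ± 0.239), all in FPKM. From *Gria4* downward the ranges of neighbours overlapped. The upper gene of a pair was nevertheless the higher in all 3 sham libraries, except that *Grin2c* was above *Gria3* in 1 library. In SNI-NP rats *Gria2* (1.41 ± 0.879 FPKM) stood seventh by mean, after *Grin2c*, *Grin2d* and *Grin3a*, and *Grin2a* (0.463 ± 0.387) was last, after *Grin2b* (0.827 ± 0.33). In SNI-NP replicate 1, however, *Gria2* (2.4 FPKM) lay above *Grin2d* (1.84) and *Grin3a* (1.59).

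**Figure D2:**
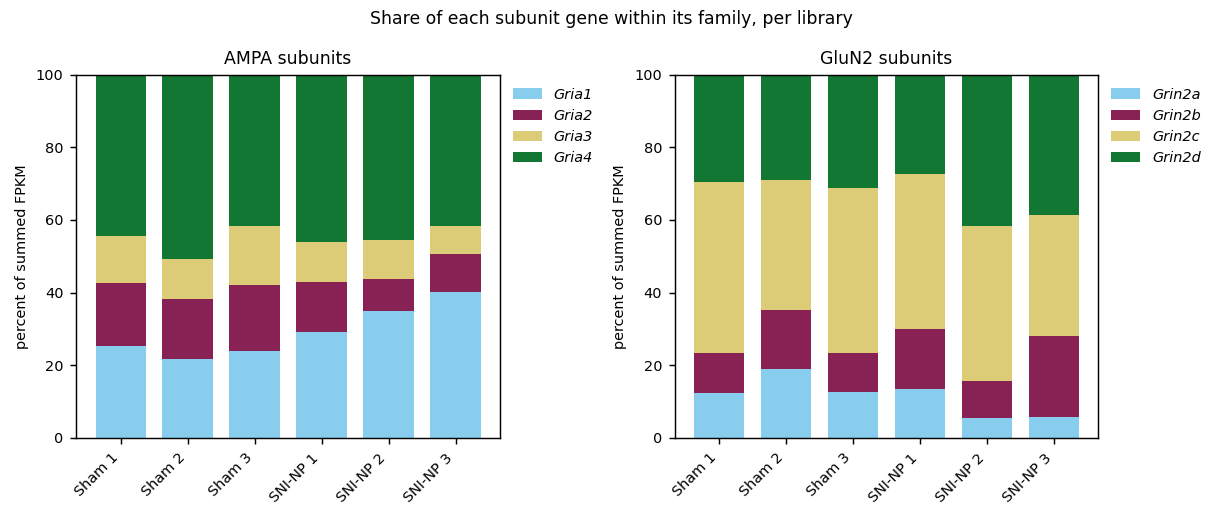
Stacked bars give the percent (vertical axis, 0 to 100) that each gene takes of the summed FPKM of *Gria1* to *Gria4* (left) and of *Grin2a* to *Grin2d* (right) in each of the 6 libraries. The *Gria2* band is 16.5% to 18.4% in the sham libraries and 8.67% to 13.9% in the SNI-NP libraries.

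The make-up of each family within a library does not depend on how libraries are scaled. *Gria2* took 17.3%, 16.5% and 18.4% of the AMPA subunit FPKM in sham libraries against 13.9%, 8.67% and 10.2% in SNI-NP libraries, so that the groups were separate. The mean share was 17.4 ± 0.923% and 10.9 ± 2.68% (SD, 3 libraries each). The share of *Gria1* went the other way, with 25.3%, 21.8% and 23.8% in sham libraries against 29.1%, 35% and 40.3% in SNI-NP libraries. *Gria3* took 13.1%, 11% and 16.1% against 10.8%, 10.9% and 7.89%, where the closest values of the groups differed little. *Gria4* held 45.5 ± 4.58% in sham libraries against 44.4 ± 2.48% in SNI-NP libraries, and its values overlapped. Shares of one sum are not independent of each other, and no test was made because the same contrast was known when the genes were chosen. How often shares separate the groups in other gene families was not worked out. In CPM, 8.15% of all genes tested were separate and lower and 10.4% separate and higher.

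Within the GluN2 genes the shares of all 4 overlapped between the groups. *Grin2c* was the largest in sham rats at 42.6 ± 5.94% (SD, n = 3), followed by *Grin2d* at 29.9 ± 1.26%, and these were 39.6 ± 5.4% and 35.9 ± 7.55% in SNI-NP rats. The log2 ratio of *Grin2a* to *Grin2b* FPKM was 0.16, 0.24 and 0.22 in sham libraries against -0.27, -0.88 and -2 in SNI-NP libraries. In FPKM, *Grin2a* was thus above *Grin2b* in each sham library and below it in each SNI-NP library, on 17 to 105 counts a gene and library. The order in sham libraries rests on gene length, 4255 bases for *Grin2a* and 5248 for *Grin2b*. In CPM, *Grin2a* was below *Grin2b* in each sham library as well, at 4.92, 2.7 and 3.55 against 5.4, 2.82 and 3.78. The difference of group means in the log2 ratio was -1.26 in FPKM and in CPM. How often such ratios separate the groups for other genes was not worked out. For single genes in CPM, 8.15% of all genes tested were separate and lower and 10.4% separate and higher. The summed AMPA subunit FPKM was also set over the summed FPKM of the 6 NMDA subunit genes examined, which leave out *Grin3b*. This ratio was 0.591, 0.714 and 0.549 in sham libraries against 0.569, 0.284 and 0.402 in SNI-NP libraries, where SNI-NP replicate 1 lay in the sham range.

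**Figure D3:**
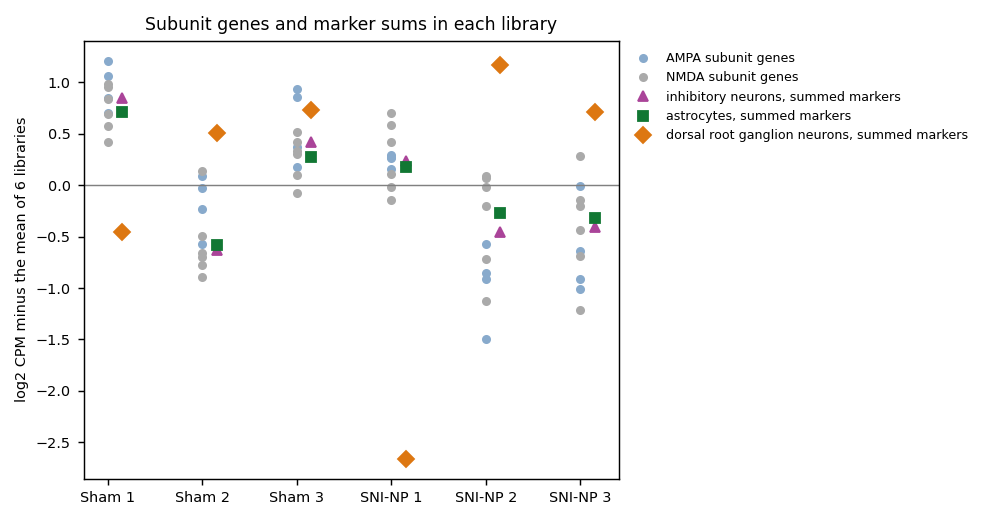
Each point is the log2 CPM of a gene, or of a summed marker list, minus its own mean over the 6 libraries (vertical axis), for each library (horizontal axis). The subunit genes, the inhibitory neuron markers and the astrocyte markers are all high in sham replicate 1, and the ganglion markers are at -2.66 in SNI-NP replicate 1.

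The sham libraries stood in the same order for all 10 genes. Sham replicate 1 was the highest of its group for 10 of the 10 genes, sham replicate 2 the lowest of its group for 10, and SNI-NP replicate 1 the highest of its group for 9. The median profile of the 10 genes, as log2 CPM centred on the mean of the 6 libraries, was 0.85, -0.53 and 0.35 in sham libraries against 0.26, -0.64 and -0.54 in SNI-NP libraries. *Gria4* lay closest to it, with a root mean square difference of 0.226, and *Gria2* farthest, with 0.527. The 3 other genes with the nearest profiles were *Htr2c* (0.0843), which encodes a serotonin receptor, *Prox1* (0.101), which encodes a homeobox transcription factor, and *Psd2* (0.124), against a median of 0.598 over the 14412 other genes compared.

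Sham replicate 1 was the highest and sham replicate 2 the lowest sham library for inhibitory neuron, astrocyte and oligodendrocyte markers, as for the subunit genes. The oligodendrocyte markers summed to 40884, 30372 and 33853 CPM in sham libraries against 40088, 30040 and 33096 in SNI-NP libraries. The inhibitory neuron markers (*Gad1*, *Gad2*, *Slc32a1* and *Pax2*) summed to 189, 67.8 and 140 CPM in sham libraries against 123, 76.6 and 79.2 in SNI-NP libraries, and 0 of these 4 genes passed the unadjusted threshold. The 6 astrocyte markers summed to 1829, 749 and 1343 CPM against 1267, 928 and 896, with 1 of the 6 genes lower at an unadjusted p under 0.05. The 7 general neuron markers, which ganglion neurons also express, summed to 1939, 1766 and 2490 CPM in sham libraries against 1179, 2683 and 2161 in SNI-NP libraries, with 3 of the 7 lower and 0 higher. The excitatory neuron markers summed to 89.8, 92.4 and 144 CPM against 42.6, 117 and 85.4, with 1 of the 4 tested genes lower. The motor neuron markers summed to 273, 358 and 461 CPM against 149, 741 and 495, and 0 passed. In the general, excitatory and motor neuron lists sham replicate 3 was the highest sham library. In whole tissue, fewer cells of a type and less RNA per cell cannot be told apart.

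Set against the inhibitory neuron markers, *Gria2* had 17.3, 22.1 and 18.3 CPM per 100 CPM of markers in sham libraries against 13.7, 6.38 and 9.37 in SNI-NP libraries. *Gria3* had 9.74, 11 and 12 against 7.98, 6.02 and 5.42. For both genes the groups were separate on this scale, which they were not in CPM. *Grin1* had 78.4, 90.4 and 87.8 in sham libraries against 80, 128 and 115 in SNI-NP libraries, which overlapped, and *Grin2d* was the single gene whose SNI-NP values (7.51, 12 and 9.44) all lay above its sham values (7.36, 7.31 and 6.56). The other 6 genes overlapped. On this scale 0.672% of all genes tested were separate and lower and 2.32% separate and higher. Against the astrocyte markers *Gria2* and *Gria3* were again separate and lower (1.33% of all genes, with 2.14% higher) and the other 8 overlapped. Against the general neuron markers the groups overlapped for all 10 genes (1.13% of all genes were separate and lower and 1.44% higher). Nothing is read from these shares, for the same reason as above.

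**Figure D4:**
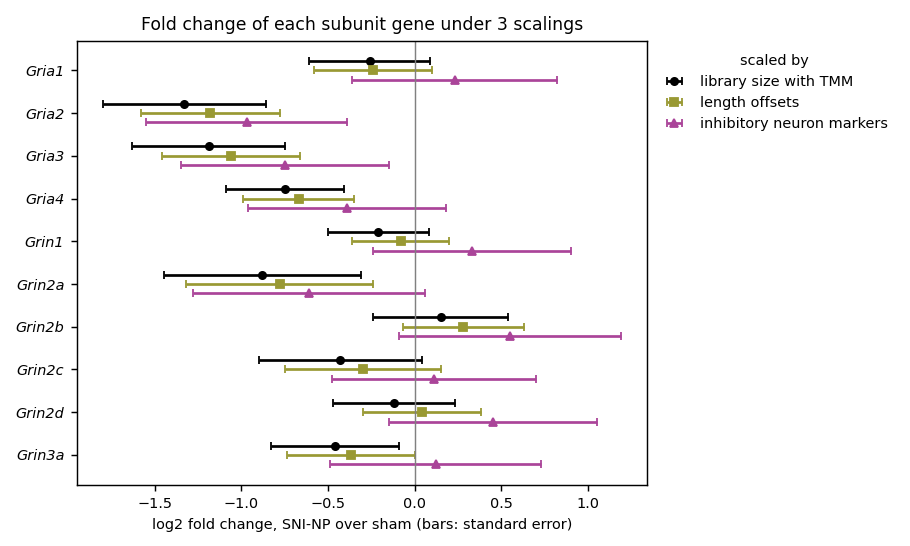
Log2 fold change of each subunit gene, SNI-NP over sham (horizontal axis, bars are ± the standard error, n = 3 per group), with library size and TMM factors, with offsets for gene length, and with the summed counts of the inhibitory neuron markers in place of library size. *Gria2* is at -1.33, -1.18 and -0.97 and *Grin1* at -0.21, -0.08 and 0.33.

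In fits scaled to the inhibitory neuron markers, a setting chosen after seeing the data, the log2FC was -0.97 for *Gria2*, -0.75 for *Gria3*, -0.39 for *Gria4* and -0.61 for *Grin2a*, and above 0 for the other 6 genes, with 0.33 for *Grin1*, 0.23 for *Gria1* and 0.45 for *Grin2d*. None of the 10 passed the unadjusted threshold there, and 1.62% of all genes tested did, against 10.8% with TMM factors. How far cell content contributed to the lower AMPA subunit levels was not tested. Gene length, as the counts and FPKM values imply it, was 6741 bases for *Gria2*, the longest of the group, and 2360 for *Gria1*, the shortest. The 2885 longest genes tested, which held 7 of the 10, had a median log2FC of -0.06. With offsets for length, *Gria2* was at -1.18 and *Gria3* at -1.06.

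Other genes linked to glutamate transmission were taken from lists of 60 genes, of which 57 were tested. Besides postsynaptic proteins, these lists hold RNA editing enzymes and genes that handle NMDA receptor co-agonists. At an unadjusted p under 0.05, 6 of the 57 were lower in SNI-NP rats and 1 was higher, beside 5.94% and 4.91% of all genes tested by edgeR. After adjustment 0 of the 57 passed by edgeR and 1, *Dlg2*, by DESeq2, beside 0 and 210 of all 14426 genes tested. The median log2FC of the 57 was -0.26, with 43 of them below 0, beside 0.00569 and 49.1% for all genes tested. The lists were chosen with earlier results of these data known, so these counts are a description only. The SNI-NP libraries lay below all sham libraries for 6 of the 57 and above them for 1, beside 8.15% and 10.4% of all genes tested. The count of 7 was 12.3% of the 57, beside 10.8% of all genes in either direction. It fell to 3 (5.26%) when sham replicate 1 or SNI-NP replicate 2 or 3 was left out. In those fits 6.21%, 9.5% and 6.28% of all genes passed, in that order. The count was 4 (7.02%, beside 6.97% of all genes) with sham replicate 3 left out. It was 11 (19.3%, beside 13.1% of all genes) with SNI-NP replicate 1 left out and 20 (35.1%, beside 14.6%) with sham replicate 2 left out.

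Of the 15 tested genes for auxiliary and assembly proteins, 2 were lower at an unadjusted p under 0.05, beside 5.94% of all genes tested. *Frrs1l*, which encodes a protein of the endoplasmic reticulum needed for AMPA receptor assembly, had 3.3, 2.03 and 2.62 CPM in sham libraries against 1.27, 0.666 and 1.33 in SNI-NP libraries, with no overlap. Its log2FC was -1.28 (SE 0.37, edgeR adjusted p = 0.403), and it passed the unadjusted threshold in all 6 fits made without 1 library. *Cacng2*, which encodes stargazin, a protein that brings AMPA receptors to the synapse, had 12.7, 7.1 and 12.7 CPM against 7.99, 3.33 and 3.88, and overlapped. Its log2FC was -1.10 (SE 0.39, edgeR adjusted p = 0.436). It passed in 2 of those 6 fits.

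Of the 26 genes for scaffold proteins and kinases, 3 were lower and 1 was higher, beside 5.94% and 4.91% of all genes tested. *Dlg2*, which encodes the scaffold PSD-93, had 18.9, 11.5 and 15 CPM in sham libraries against 8.11, 9.72 and 7.36 in SNI-NP libraries, with no overlap. Its log2FC was -0.85 (SE 0.22, edgeR adjusted p = 0.348 and 0.0482 by DESeq2), and it passed the unadjusted threshold whichever library was left out. *Lrrc7*, which encodes densin, had a log2FC of -1.54 (SE 0.53) from levels of 0.958 to 2.1 CPM in sham libraries against 0.278 to 0.69 in SNI-NP libraries, and passed in 3 of the 6 fits made without 1 library. *Akap5*, which encodes an anchor for protein kinase A at AMPA receptors, had 0.789 to 1.92 CPM in sham libraries against 0.748, 0.111 and 0 in SNI-NP libraries, with values under the limit of 0 counts in 2 of them. It passed in 2 of the 6 fits, where its log2FC ran from -4.45 to -1.72. *Homer3*, which encodes a scaffold that links metabotropic glutamate receptors, was higher, with 21.1, 18.6 and 18.8 CPM against 27.1, 23.8 and 23.1 and a log2FC of 0.34 (SE 0.12, edgeR adjusted p = 0.436), and it passed in 2 of the 6.

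Of the 8 other ionotropic receptor subunits, 1 was lower, the kainate receptor gene *Grik2*, beside 5.94% of all genes tested. It had 15.4, 15 and 11.6 CPM in sham libraries against 12.1, 9.22 and 9.51 in SNI-NP libraries. Its log2FC was -0.44 (SE 0.18, edgeR adjusted p = 0.454). The groups overlapped, and it passed in 2 of the 6 fits. None of the 3 RNA editing enzymes and none of the 5 genes that handle NMDA receptor co-agonists passed the unadjusted threshold, beside 10.8% of all genes tested. The most abundant of these per length were *Adar*, with a log2FC of -0.07 (SE 0.21), and the glycine transporter gene *Slc6a9*, with 184, 62.8 and 157 CPM in sham libraries against 121, 97.2 and 84.5 in SNI-NP libraries. *Adar* is named for its level only, and its value does not stand for the other editing enzymes. The 3 editing enzymes had a median log2FC of -0.35 and all 3 were below 0, beside 49.1% of all genes tested.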

How the data were processed

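The authors mapped RNA-seq reads of 3 sham and 3 SNI-NP spinal cord libraries to the rat release they call Rat6 and kept unique sequences; the submitters' processing notes name FastQC, STAR and HTSeq. For each of 22050 genes the authors deposited FPKM beside an estimated count that had not been normalized. The counts of the 10 subunit genes were whole, and other estimated counts were rounded. The members and gene lists were chosen with earlier results of these data known. edgeR 4.0.16 (R 4.3.3) was run with filterByExpr, TMM and the quasi-likelihood test with group as the single term, over 14426 genes, with Benjamini-Hochberg adjustment, and was tested on simulated data. Named genes are the members, listed partner genes with an unadjusted p under 0.05 or else the gene of highest FPKM in a list with none, and the 3 genes nearest the members' profile (log2 CPM with a prior count of 2). Of the listed partners, *Gsg1l* and *Shisa9* were not matched by symbol and 1 gene was not tested. Alternatives were DESeq2 1.42.0, other scaling factors and filters, length offsets (loess, span 0.5), the replicate number as a block, marker-based scaling and leaving out each library. The depth was 16670760 to 18151156 counts per library. The result of 1 marker list is not reported here.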

Additional observations from a re-analysis of the deposited data

How the results depend on the processing

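With 3 libraries per group and an edgeR test, 0 of the 10 subunit genes passed the adjusted threshold in the fits with other scaling factors, filters, length offsets, the replicate block, neuron marker scaling and DESeq2, and in the 6 fits without one library. The count at an unadjusted p under 0.05 was 2, where 10.8% of all genes passed. It was 4 with the replicate block (9.14% of all genes) and 4 with length offsets and the replicate block (10.7%). Scaling to neuron markers gave 0 (1.78%). Marker scalings chosen once the values were known gave 0 for inhibitory neurons (1.62%) and 1 for astrocytes (2.36%). The lower counts with marker scaling thus went with a lower share of all genes. The count of subunit genes ranged from 0 to 5 when each library was left out, while the share of all genes ranged from 6.21% to 14.6%. The partner genes numbered 7, ranged from 3 to 20 in those fits, and were 1 when scaled to neuron markers, where 1.78% of all genes passed against 10.8% with TMM factors. The median log2 fold change of the subunit genes was -0.79 to -0.04 when each library was left out. The cause was not tested. Same-numbered libraries deviated together in replicate 1 only (correlations 0.214, -0.143 and 0.0538), so the numbers were not taken as pairs. *Gria2*, *Gria3*, *Gria4* and *Grin2a* were below 0 in all 18 alternatives, whereas *Gria1* and *Grin1* were below 0 in 14, *Grin2d* in 12, *Grin3a* in 17 and *Grin2b* in 2. *Grin2c* ranged from -0.80 to 0.11. The lower *Gria2* share lay between -7.96 and -5.35 percentage points without single libraries. Counts of 17 to 105 limit the *Grin2a* and *Grin2b* values.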
